A study of Mus musculus with 8 samples.

Results

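The change of gene expression between 5 days and 1 month of age was followed in the wild-type mouse eye. The comparison used 4 of the 8 arrays in the series, chosen by their titles. There were 2 arrays (I and II) of wild-type eyes at 5 days and 2 arrays (I and II) of wild-type eyes at 1 month. The labels name C57Bl6 for the eyes at 5 days and no strain for the wild type at 1 month, so strain and age cannot be told apart. The other 4 arrays are of KPAW eyes at the same ages, 2 at each. KPAW is not spelled out in the labels, its genotype and strain are not given here, and these arrays entered only where named. Total RNA of whole eyes was used, with no treatment named. The labels do not say whether arrays of a group came from separate animals, so each p-value measures only the spread between these arrays. Of 22690 probe sets, 64 controls and 29 sex-linked probe sets were left out, and 15818 probe sets naming 9467 genes passed a filter on low signal and were tested.

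The mouse is born with closed eyelids and an unfinished retina, and the ages compared lie on either side of eyelid opening. In the newborn retina progenitors still divide and give rise to late-born rods, bipolar cells and Mueller glia, and rods later build outer segments, stacks of membrane that hold the machinery of light detection. The corneal surface thickens into a layered epithelium after the lids part, the vessels that feed the developing lens regress, and fibroblasts of sclera and stroma lay down collagen. Whole-eye RNA mixes all of these tissues with attached muscle and lid. A lower signal in such RNA cannot tell fewer cells of a type from less RNA per cell.

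Values are scaled signals, the deposited signal of a probe set after each array was brought to a common trimmed mean of 0.180. On each array 9.97% to 14.8% of probe sets sat at the lowest listed value of 0.01. Arrays have no read depth, and precision is limited by having 2 per age. Replicates correlated at 0.964 at 5 days and 0.969 at 1 month over the tested probe sets. The 5-day arrays differed in transcripts of skin and hair. Of tested genes, 121 were more than 2-fold higher in 5-day I than in 5-day II and 26 the other way, against 46 and 31 between the 1-month arrays. The 121 included 16 of 19 hair follicle genes and 14 of 19 keratinization genes. Markers of rods, cones, lens, corneal epithelium, pigment epithelium and Mueller glia gave signals above the lowest value on all 1-month arrays, as the tissue label asks. Of other tissues, muscle gave clear signals, with Acta1, skeletal actin, at 1.74 and 1.23 at 5 days and 0.747 and 0.469 at 1 month, and skin and hair markers were high in 5-day I. Of blood markers, Hba-a1, a globin, gave low signals (0.0178 to 0.0432). Alas2, a haem gene, had 0.265 and 0.159 at 5 days and 0.099 and 0.038 at 1 month (adjusted p 0.038 in limma). The other tested blood gene, Hbb-b2, did not pass (log2 -0.10). Of 17 Y-linked probe sets, 9 were higher on both 1-month arrays than on both 5-day arrays and 0 were lower. The sex of the animals is not given, so sex and age cannot be told apart.

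Many transcripts differed between the ages. In limma, 3795 of 15818 probe sets (24.0%) passed a Benjamini-Hochberg adjusted p of 0.05, 1948 higher at 1 month (12.3%) and 1847 lower (11.7%). By the representative probe set of each gene, 1220 genes rose (12.9% of those tested) and 1187 fell (12.5%). Large changes were mostly gains: 566 genes rose and 365 fell at least 2-fold, and 40 rose and 4 fell at least 8-fold. Groups that do not overlap were common, with both 1-month arrays above both 5-day arrays for 3057 genes (32.3%) and below them for 3253 (34.4%). Named genes were partly picked for large change and separate groups. Statements below that groups did not overlap therefore describe these genes and add no support to their calls. The split depended on scaling. On the values as deposited the median probe set was higher at 1 month by 0.44 (log2), with 3650 called higher and 383 lower. That fit also pooled the spread over all probe sets, so a larger count of rises there is no added support. Median scaling gave 1695 higher and 2375 lower. Without 5-day I the counts were 1386 and 1020, and without 5-day II 1493 and 1136. Changes below are relative to the trimmed mean, and 21 of the 180 called genes of the text lost their call on the values as deposited. Of all 3795 called probe sets, 2274 (59.9%) kept call and sign there. Of 45 gene lists, 11 had a median log2 change that changed sign under another scaling. Set against the median gene, 3 lists changed side: crystallins, cartilage and bone, and adult muscle. Across the lists, corneal epithelium, rod and cone genes had the highest medians, and hair follicle, fibrillar matrix, immature neuron and cell cycle genes the lowest.

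**Figure D1:**
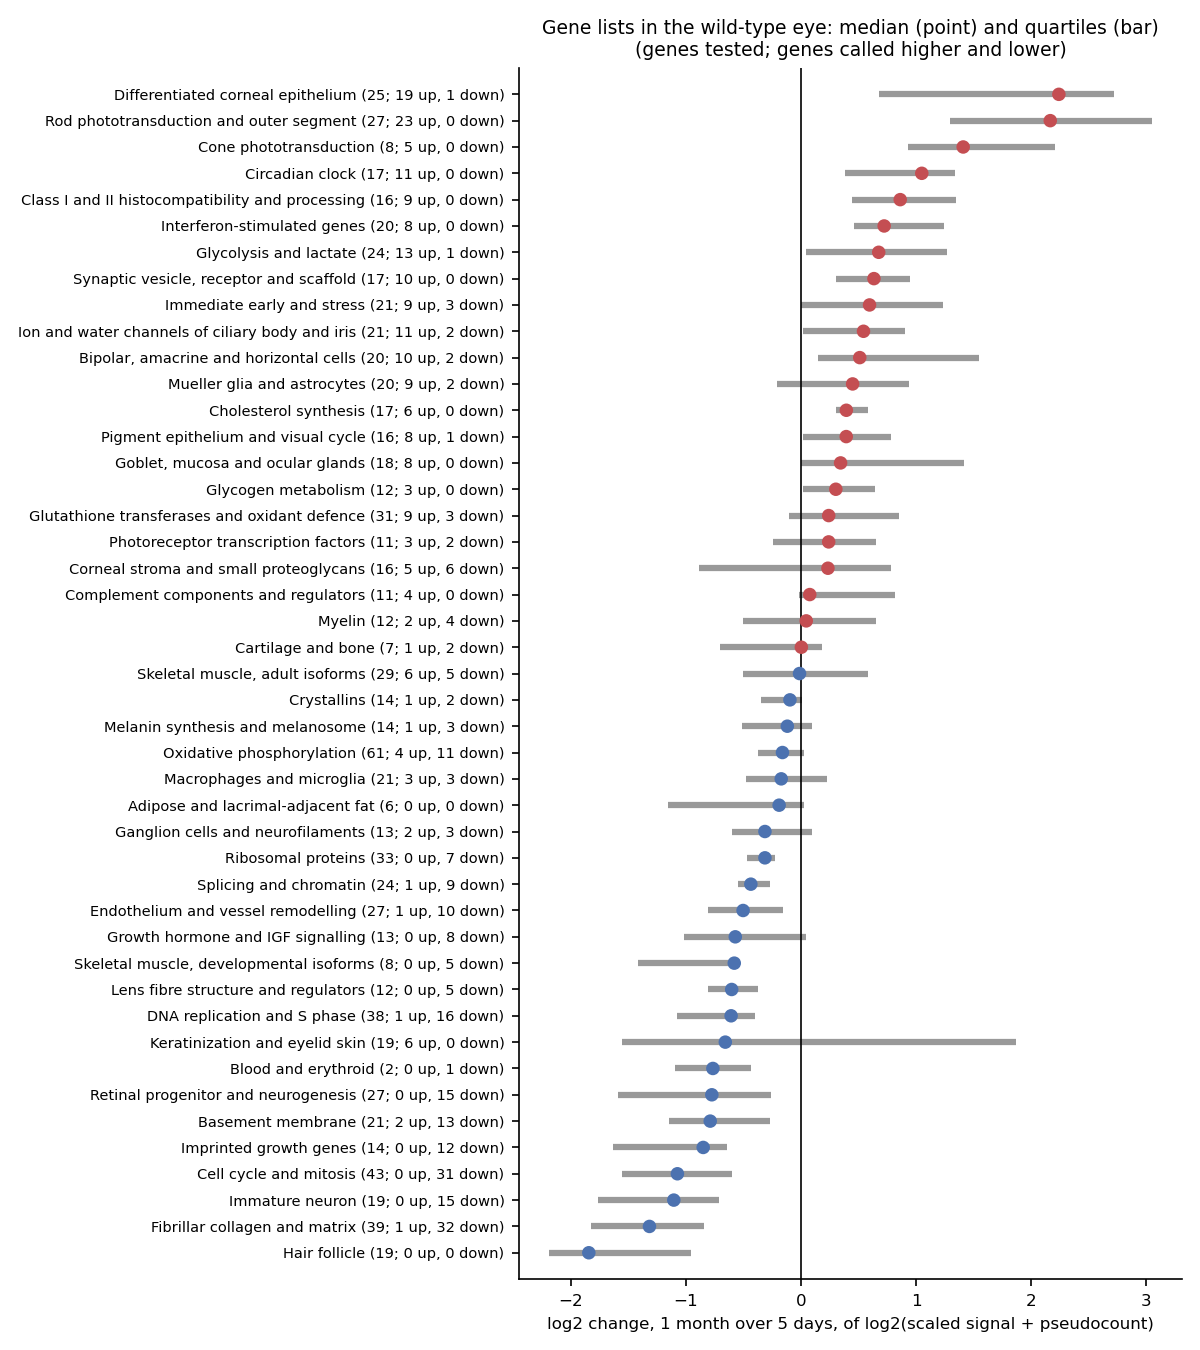
Median (point) and quartiles (bar) of the log2 change from 5 days to 1 month over the tested genes of each list in the wild-type eye, with the genes tested and called in brackets. Corneal epithelium (median 2.24) and rods (2.17) lie at the top, and fibrillar matrix (-1.32) and hair follicle (-1.84) at the bottom, although no hair follicle gene passed the test at this scaling.

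Genes of rod phototransduction rose. Of 27 tested genes of the rod list, 23 rose and 0 fell, with a median log2 change of 2.17 against -0.01 over all tested genes. In rods, light-activated opsin switches on the G protein transducin, which activates phosphodiesterase, and the fall in cyclic GMP closes a cation channel. Gnat1, the rod transducin alpha subunit, had scaled signals of 0.0634 and 0.0701 at 5 days and of 5.99 and 7.09 at 1 month. The age groups were far apart, and the log2 change of 6.22 (SE 0.13, adjusted p 2.6e-05) was the second largest rise on the scale of log2(signal + 0.0211), which understates rises that start near that pseudocount. The 3 phosphodiesterase subunits all rose. Pde6a went from 0.0194 and 0.0421 to 0.55 and 0.668 (log2 3.63, SE 0.24), and Pde6b from 0.297 and 0.327 to 2.28 and 2.7 (log2 2.91, SE 0.13). Both catalytic subunits were thus lower on each 5-day array than on each 1-month array. The inhibitory subunit Pde6g, with signals of 1.22 and 1.03 before and 4.97 and 6.36 after, had a log2 change of 2.31 (SE 0.16). Calcium feedback genes rose too. Guca1b, which activates guanylate cyclase when calcium falls, rose from 0.0696 and 0.0187 to 3.54 and 4.22 (log2 6.02, SE 0.36, adjusted p 0.00031). Guca1a rose from 0.188 and 0.149 to 2.37 and 2.67 (log2 3.75, SE 0.15). Slc24a1, the rod sodium-calcium exchanger, rose from 0.0801 and 0.0726 to 2.24 and 2.57 (log2 4.64, SE 0.13). In each of these genes replicates lay closer together than the ages. Rcvrn, the calcium sensor recoverin, rose by a log2 of 3.12 (SE 0.16), Rdh12, a retinol dehydrogenase, by 2.98 (SE 0.14) and Cplx4, a complexin of photoreceptor synapses, by 3.17 (SE 0.12).

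Other rod genes changed less. Sag, the arrestin that shuts off opsin, had signals of 2.32 and 2.43 at 5 days and 5.83 and 7.73 at 1 month, a log2 change of 1.49 (SE 0.16, adjusted p 0.0021). By role, all 4 tested genes of disc structure rose, with log2 changes from 0.81 to 1.72, and 2 of 4 shut-off genes passed. Of the 4 members that did not pass, Pdc, phosducin, had 1.72 and 1.75 against 2.16 and 2.42 (adjusted p 0.057), and Rpgrip1, a cilium protein, 0.525 and 0.461 against 0.628 and 0.738 (adjusted p 0.059). In Gnb1, a transducin beta subunit also present outside rods, the 1-month arrays themselves disagreed (1.31 and 5.84), and the groups overlapped. The rod calls rest on the spread within the wild type. A fit that also took its spread from the KPAW arrays called 4 of the 27 (Pde6b adjusted p 0.25, Sag 0.35), and the KPAW 1-month arrays differ from each other in these genes, as given with the KPAW values.

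Promoter sequences of rod genes are shown because the members rose together. The homeodomain factor CRX is known to bind the letters TAATCC in photoreceptor promoters. In the 250 bases before the start site (RefSeq, GRCm38.p6), 16 of the 23 genes that rose had a sequence, and 9 of these 16 held TAATCC on either strand (GGATTA on the other). The letters were found in 6.52% of 7633 tested genes with a sequence and in 5.29% of all 9892 windows. A match is a description of letters, not of binding. Below, capitals mark TAATCC or GGATTA in Sag (chr1:87803430-87803679, plus strand), Guca1a (chr17:47400607-47400856, minus strand) and Cngb1, a subunit of the rod channel (chr8:95306586-95306835, minus strand).
Sag: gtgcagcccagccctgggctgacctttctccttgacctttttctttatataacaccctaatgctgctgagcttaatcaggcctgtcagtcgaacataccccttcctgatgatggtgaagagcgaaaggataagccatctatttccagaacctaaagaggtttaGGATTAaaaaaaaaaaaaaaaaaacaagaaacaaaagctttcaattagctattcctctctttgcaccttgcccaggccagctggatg
Guca1a: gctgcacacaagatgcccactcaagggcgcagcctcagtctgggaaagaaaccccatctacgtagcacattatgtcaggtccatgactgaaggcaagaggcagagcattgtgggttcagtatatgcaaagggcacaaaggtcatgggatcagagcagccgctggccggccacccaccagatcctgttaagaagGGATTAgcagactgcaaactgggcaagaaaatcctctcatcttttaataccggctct
Cngb1: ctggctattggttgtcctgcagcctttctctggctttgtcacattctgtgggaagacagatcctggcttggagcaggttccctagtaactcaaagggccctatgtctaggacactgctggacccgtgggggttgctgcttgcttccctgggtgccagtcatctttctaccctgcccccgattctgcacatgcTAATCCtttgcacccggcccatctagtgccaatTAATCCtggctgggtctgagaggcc
The match began 87 bases before the start in Sag and 57 in Guca1a. Cngb1 held 2 matches, 58 and 25 bases before the start. Its signals were 0.333 and 0.336 at 5 days and 0.953 and 0.61 at 1 month (log2 1.14, SE 0.21, adjusted p 0.012).

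Cone genes rose too. Of 8 tested cone genes 5 rose and 0 fell, with a median log2 change of 1.41. As deposited all 8 were called higher, in a fit with pooled spread where 90.5% of calls are rises. The mouse makes a short-wave and a middle-wave cone opsin, and both rose. Opn1mw, the middle-wave opsin, was at the lowest listed value on both 5-day arrays and had 0.402 and 0.524 at 1 month. That is at least 21.8-fold higher, a bound taken against the pseudocount of 0.0211. Opn1sw, the short-wave opsin, already gave 0.59 and 0.658 at 5 days, rose to 1.56 and 1.45, and changed by a log2 of 1.24 (SE 0.12, adjusted p 0.0013, but 0.20 in the fit of all 8 arrays). Arr3, cone arrestin, rose from 0.0334 and 0.043 to 0.473 and 0.529 (log2 3.14, SE 0.15). The ages did not overlap in these genes. Gnat2, cone transducin, and Pde6h, the inhibitory cone phosphodiesterase subunit, rose by log2 1.58 (SE 0.13) and 1.89 (SE 0.18). Pde6c, the catalytic subunit, had 0.0276 and 0.0312 against 0.157 and 0.0434 and did not pass (adjusted p 0.14), with the 1-month arrays apart.

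The factors that control photoreceptor genes changed in both directions. Of 11 tested factors 3 rose and 2 fell. Nrl, which commits cells to the rod fate, rose from 2.41 and 2.59 to 3.89 and 4.73 (log2 0.78, SE 0.14, adjusted p 0.012), a call lost without 5-day I (adjusted p 0.12), without 5-day II (0.069) and in the fit of all 8 arrays (0.77). Crx had 1.01 and 1.08 against 1.31 and 1.3 (log2 0.32, SE 0.11, adjusted p 0.087) and did not pass. The nuclear receptor Esrrb rose most, from 0.0349 and 0.059 to 0.789 and 0.749 (log2 3.56, SE 0.19), followed by Mef2c (log2 1.73, SE 0.19). Falls were seen in Prdm1, known to hold back bipolar fate in newborn photoreceptors, and in Otx2, an early factor of photoreceptors and pigment epithelium. Prdm1 went from 0.847 and 0.815 to 0.211 and 0.205 (log2 -1.90, SE 0.11, adjusted p 0.00031), and Otx2 from 1.31 and 1.54 to 0.769 and 0.834 (log2 -0.81, SE 0.13). On the values as deposited Otx2 did not pass (adjusted p 0.45).

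**Figure D2:**
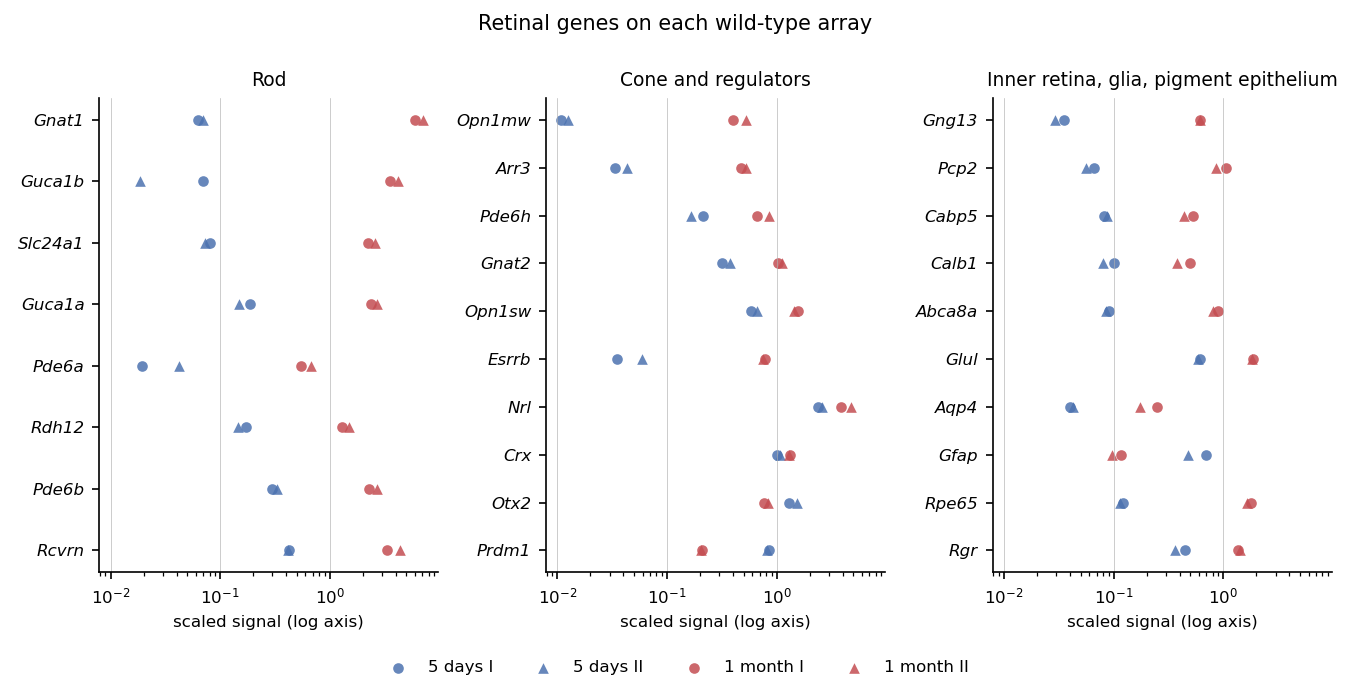
Scaled signal (log axis) of retinal genes on each of the 4 wild-type arrays, 5 days in blue and 1 month in red, with circles for array I and triangles for array II. Rod genes such as Gnat1 move from 0.0634 and 0.0701 to 5.99 and 7.09, while Crx stays between 1.01 and 1.31.

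In the inner retina, 10 of 20 tested genes of bipolar, amacrine and horizontal cells rose and 2 fell. Bipolar cells carry the photoreceptor signal inward, and 7 of their 10 tested genes rose. Gng13, a G protein gamma subunit of ON bipolar cells, had 0.0354 and 0.0292 at 5 days and 0.615 and 0.613 at 1 month, and Pcp2, a modulator of G protein signalling, 0.0665 and 0.0561 against 1.07 and 0.854. Each changed by a log2 of 3.57 (SE 0.14 and 0.16), with the ages far apart. The calcium-binding protein Cabp5 rose by 2.26 (SE 0.14) and Scgn, secretagogin, by 1.38 (SE 0.14). Of the 2 tested horizontal cell genes Prox1 did not pass (log2 -0.58), while Calb1, calbindin, which marks these cells, rose by 2.05 (SE 0.18). In contrast Trpm1, the channel of ON bipolar cells, also made by melanocytes, fell from 0.684 and 0.73 to 0.354 and 0.331 (log2 -1.0, SE 0.12). Tfap2a, an amacrine cell factor, fell by 0.71 on the log2 scale (SE 0.18, adjusted p 0.033), a call lost without 5-day I (adjusted p 0.052), 5-day II (0.10) or 1-month II (0.080). Of 17 tested synaptic genes 10 rose and 0 fell. These were mainly vesicle genes (9 of 11), among them Syt1, the calcium sensor of release (0.23 and 0.387 against 0.809 and 0.717), Stx3, the syntaxin of ribbon synapses (log2 1.28, SE 0.15), and Cplx3 (log2 1.04, SE 0.11). Receptor and scaffold genes had 1 of 4 called. Without 5-day II, 6 of the 17 synaptic genes passed.

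Mueller glia, which span the retina and clear glutamate, potassium and water, had more rises than falls. Of 20 tested genes 9 rose and 2 fell, with 5 rises without 5-day I. Glul, glutamine synthetase, went from 0.618 and 0.59 to 1.87 and 1.82 (log2 1.58, SE 0.11, adjusted p 0.00049), and Aqp4, the glial water channel, from 0.0403 and 0.0423 to 0.246 and 0.172 (log2 1.87, SE 0.20). Abca8a, a lipid transporter, rose from 0.0899 and 0.0857 to 0.89 and 0.800 (log2 2.99, SE 0.13). All were higher on both 1-month arrays. The 9 genes without a call included Slc1a3, of glutamate handling, with 0.130 and 0.203 against 0.148 and 0.188. Its groups overlapped (log2 0.04, adjusted p 0.93). Both falls were intermediate filaments, Gfap of astrocytes (0.697 and 0.473 against 0.116 and 0.0963, log2 -2.23, SE 0.20) and Nes, nestin, of precursor cells (log2 -1.55, SE 0.19).

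Retinal pigment epithelium returns all-trans retinol to the 11-cis form that opsins need. Of 16 tested genes of this epithelium and the visual cycle 8 rose and 1, Otx2, fell. The rises were 5 without 5-day I, without 1-month II or in the fit of all 8 arrays. Rpe65, the isomerase of the cycle, rose from 0.121 and 0.114 to 1.79 and 1.66 (log2 3.66, SE 0.12, adjusted p 7.5e-05). Lrat, which esterifies retinol, rose from 0.0109 and 0.0232 to 0.083 and 0.0969 (log2 1.56, SE 0.24), and Rgr, a photoisomerase, by 1.73 (SE 0.14). Rdh5, the retinol dehydrogenase that makes 11-cis retinal, rose by 0.99 (SE 0.11). Pigment genes gave few calls. Of 14 tested melanin and melanosome genes 1 rose and 3 fell, with a median of -0.12 that turned positive on the values as deposited. Tyr, tyrosinase, fell from 0.769 and 0.812 to 0.368 and 0.371 (log2 -1.06, SE 0.11) and Pmel, the melanosome fibril protein, from 3.72 and 3.92 to 1.87 and 1.88 (log2 -1.02, SE 0.11). Both calls were lost on the values as deposited (adjusted p 0.18 and 0.10). Dct (3.37 and 3.68 against 3.28 and 3.98) and Tyrp1 (0.835 and 1.05 against 1.22 and 0.895), enzymes later in the same path, had overlapping groups. Among 21 tested genes of ion and water transport in ciliary body and iris 11 rose and 2 fell, with 6 rises without 5-day I. The 3 tested beta subunits of the sodium pump rose, with log2 changes from 0.54 to 1.06, as did Slc12a2, a sodium, potassium and chloride cotransporter (log2 1.04). Ptgds, prostaglandin D synthase, which the eye secretes, went from 2.65 and 2.81 to 5.00 and 5.74 (log2 0.97, SE 0.13), with an adjusted p of 0.0041, or 0.058 without 5-day I.

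Genes of differentiated corneal epithelium rose. Of 25 tested genes of this list 19 rose and 1 fell, with a median log2 change of 2.24. Aqp5, the water channel of corneal epithelium and tear gland, was at or near the lowest listed value at 5 days (0.0109 and 0.0171) and gave 3.28 and 3.16 at 1 month (log2 6.54, SE 0.14, adjusted p 2.6e-05), the largest rise of any gene on this scale. Krt12, the cornea-specific keratin, rose from 0.553 and 0.548 to 6.76 and 7.82 (log2 3.67, SE 0.12), and Aldh3a1, the abundant aldehyde dehydrogenase of the cornea, from 0.173 and 0.102 to 4.14 and 4.56 (log2 4.82, SE 0.22). Neither age overlapped the other in any of them. Slurp1, a secreted protein of the corneal surface, rose from 0.0231 and 0.0178 to 2.01 and 2.2 (log2 5.68, SE 0.13). Psca, a cell surface protein, was at the lowest listed value on both 5-day arrays and was at least 57.9-fold higher at 1 month (1.14 and 1.3). Muc4, a membrane mucin of the tear film, rose by 2.96 (SE 0.18) and Elf3, an epithelial transcription factor, by 2.71 (SE 0.12). The exception was Upk3b, a uroplakin, which fell from 0.106 and 0.113 to 0.0461 and 0.0469 (log2 -0.95, SE 0.16, adjusted p 0.010). Aldh1a1 had 1.32 and 1.12 against 0.92 and 0.645 and did not pass (adjusted p 0.054).

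Genes of stratified and mucosal epithelium rose with the corneal genes. Of 18 tested goblet, mucosal and gland genes 8 rose and 0 fell, or 5 in the fit of all 8 arrays. Krt4 and Krt13, the keratin pair of mucosal lining, went from 0.0948 and 0.165 to 1.02 and 1.27 and from 0.0932 and 0.0886 to 0.65 and 0.897 (log2 2.98, SE 0.24 and 2.81, SE 0.18). Muc1, a membrane mucin, rose from 0.0109 and 0.0138 to 0.284 and 0.269 (log2 3.16, SE 0.16). Of the goblet and gland markers Muc5ac, Agr2 and Lcn2 did not pass the filter on low signal. The keratinization list divided in 2. Its 6 rises were Krt6b, Krt6a, Calml3, Dsp, Perp and Pkp1, genes that layered epithelia other than skin also make. Krt6b rose from 0.246 and 0.298 to 3.24 and 3.58 and Krt6a from 0.436 and 0.474 to 3.14 and 2.94, and as close copies their probe sets may share signal. The calmodulin-like Calml3 rose by 2.69 (SE 0.12), and the desmosome proteins Dsp, Perp and Pkp1 by 2.03, 2.38 and 1.70. Pkp1 did not pass without 1-month I (adjusted p 0.10). The fit of all 8 arrays did not call Krt4 (adjusted p 0.18), Krt13 (0.067), Krt6a (0.069), Dsp (0.054), Perp (0.058) or Pkp1 (0.26).

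Apart from the 6 rises above, the envelope gene Calml3 among them, genes of cornified skin and hair gave no call at this scaling. This split of the keratinization list follows the calls. The values of the genes without a call turn on 5-day I. Krt1, a keratin of epidermis, had 1.47 in 5-day I and 0.124 in 5-day II, against 0.127 and 0.126 at 1 month. Krt10 and Lor, loricrin of the cornified envelope, showed the same 1 high array. Tchh, trichohyalin of the hair sheath, had 0.717 in 5-day I, and the other 3 arrays were at the lowest listed value. Krt33a, a hair keratin, had 0.71 there and the lowest listed value elsewhere. Summed over its 23 genes with a probe set, tested or not, the hair list gave 10.1 in 5-day I and 0.731 in 5-day II. The sums at 1 month were 0.798 and 0.820. Its median log2 change was -1.84 with 0 genes called, -0.20 with 1 called higher without 5-day I, and -3.40 with 17 called lower without 5-day II. The keratinization median was -0.66, turned to 0.42 without 5-day I, and was -1.45 without 5-day II. On the values as deposited, where the fit pooled the spread over all probe sets, 13 of 20 hair genes were called lower and 1 higher, and 7 keratinization genes lower beside 6 higher. The corneal list did not lean on 5-day I, with a median of 2.23 and 19 rises without that array.

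**Figure D3:**
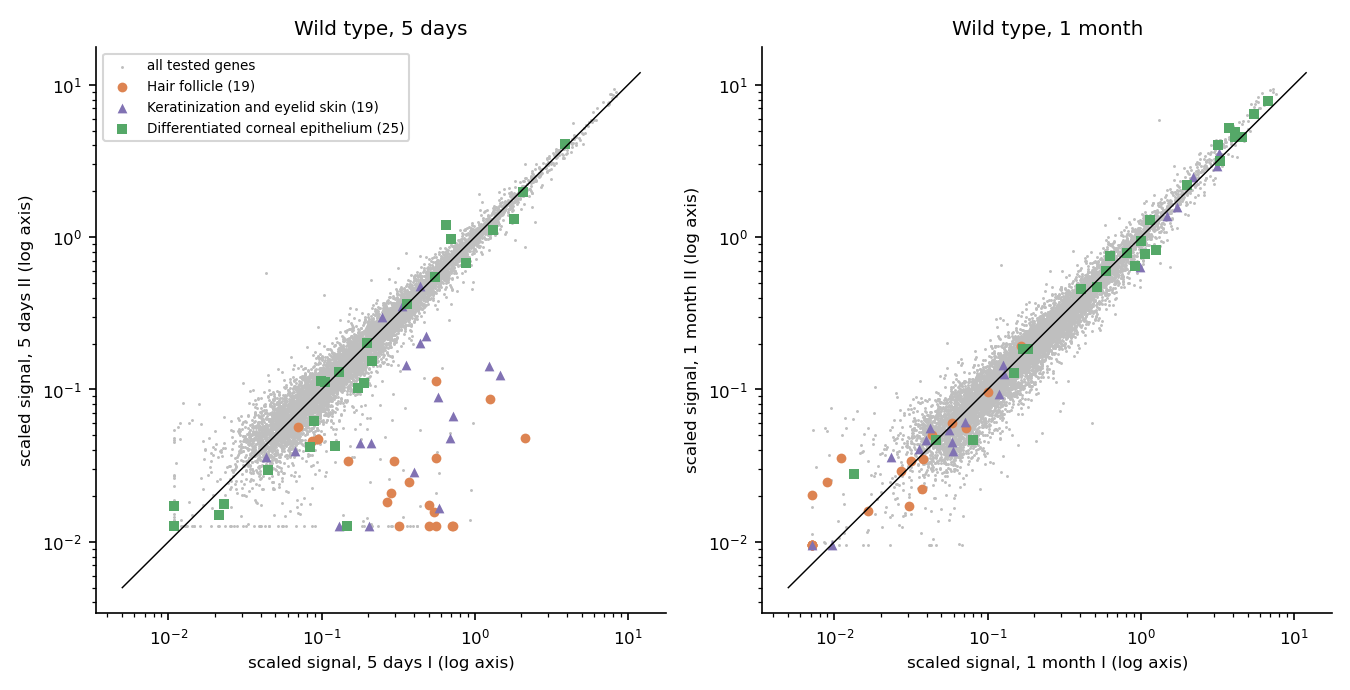
Scaled signal of each tested gene on replicate I against replicate II (log axes) at 5 days (left) and 1 month (right), with equality as a line. Hair follicle (circles) and keratinization genes (triangles) lie below the line at 5 days, 16 and 14 of them by more than 2-fold, while corneal epithelium genes (squares) lie along it and move to the upper right at 1 month.

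Most crystallin genes of the lens gave no call, while some genes of the lens fibre list fell. Of 14 tested crystallin genes 1 rose and 2 fell, and the median of -0.10 changed sign on the values as deposited. Apart from Crygn the 13 others had scaled signals from 3.09 to 9.41 on every array. These lie at or above the 99.4th percentile, where the highest signal of any probe set is 10.6, and whether signals this near the top follow a change in full was not tested. On the values as deposited 6 crystallin genes were called higher and 1 lower. Cryaa, alpha A crystallin, a chaperone, had 7.6 and 8.74 at 5 days and 7.61 and 8.65 at 1 month, with overlapping groups (adjusted p 0.98). Crygs, gamma S crystallin, had 7.38 and 7.39 against 7.25 and 9.36 (adjusted p 0.51). Crybb2 rose from 4.61 and 4.54 to 6.55 and 7.91 (log2 0.65, SE 0.14, adjusted p 0.021) and Cryga fell from 5.75 and 5.85 to 3.09 and 4.33 (log2 -0.66, SE 0.18, adjusted p 0.043). Neither passed without 5-day I (adjusted p 0.21 and 0.19) or without 5-day II (0.20 and 0.19), and probe sets of the gamma crystallins may share signal between close copies. Crygn fell furthest, from 5.14 and 5.22 to 0.611 and 0.997 (log2 -2.70, SE 0.22, adjusted p 0.00080). Of 12 tested lens fibre genes 5 fell and 0 rose. The falls were 2 as deposited, without 5-day II or without 1-month I, and 8 without 1-month II. Capn3, a calpain protease with lens forms, went from 0.487 and 0.576 to 0.0518 and 0.0463 (log2 -2.97, SE 0.15). Cdkn1c, a cell cycle inhibitor also counted among the imprinted genes, went from 1.21 and 1.12 to 0.177 and 0.335 (log2 -2.16, SE 0.27). Hsf4, a lens heat shock factor, and Gja3, a lens connexin, each fell by 0.81 on the log2 scale (adjusted p 0.022 and 0.037). Their adjusted p was 0.063 and 0.099 without 5-day II, and 0.055 and 0.078 without 1-month I. Bfsp1, the beaded filament protein filensin, had 3.42 and 3.54 against 1.64 and 2.93 and did not pass (adjusted p 0.12).

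Retinal progenitor and neurogenic genes fell. Of 27 tested 15 fell and 0 rose, with a median log2 change of -0.78. On the values as deposited 11 fell and 2 rose. The Notch pathway, which keeps progenitors dividing, had lower signals for a receptor and a target: Notch1 went from 0.626 and 0.555 to 0.171 and 0.144 (log2 -1.78, SE 0.14) and Hes5 from 0.255 and 0.191 to 0.0193 and 0.0316 (log2 -2.39, SE 0.22). Of its ligands on the list, Dll3 fell by 1.63 on the log2 scale (SE 0.23), while the others did not pass (log2 -0.40 and -0.03). Among neurogenic factors Hes6 (log2 -2.13), Insm1 (log2 -1.98), Foxn4 (log2 -1.91) and Neurog2 (log2 -1.73) fell. Neurog2 had 0.102 and 0.124 at 5 days and 0.0236 and 0.0151 at 1 month, Foxn4 0.107 and 0.0959 against 0.0116 and 0.0115. All 4 of these factors were lower on both 1-month arrays. Ccnd1, the cyclin of retinal progenitors, fell from 1.99 and 1.54 to 0.731 and 0.687 (log2 -1.28, SE 0.15, adjusted p 0.0027). Pax6, made by progenitors and also by mature amacrine cells, lens and cornea, had 0.699 and 0.975 against 1.06 and 0.771, with overlapping groups. Hes1, a Notch target that Mueller glia keep, had 0.177 and 0.165 against 0.209 and 0.292 and did not pass (adjusted p 0.10). Fabp7, a fatty acid binding protein of radial glia and neural precursors, had the largest fall of any gene on the log2 scale used, from 1.69 and 1.61 to 0.0182 and 0.0271 (log2 -5.27, SE 0.15, adjusted p 4.4e-05).

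Genes of growing neurons fell as synaptic genes rose. Of 19 tested genes of the immature neuron list 15 fell and 0 rose, with a median log2 change of -1.11. As deposited, 8 fell and 1 rose, with a median of -0.68. Sox4, a factor of newborn neurons, went from 1.99 and 2.28 to 0.307 and 0.354 (log2 -2.62, SE 0.13). Tubb2b, a tubulin of migrating neurons, went from 0.478 and 0.557 to 0.0514 and 0.0634 (log2 -2.78, SE 0.15). Dcx, doublecortin, which binds microtubules, fell from 0.19 and 0.243 to 0.0483 and 0.0418 (log2 -1.84, SE 0.18). All 5-day signals of these genes exceeded all 1-month signals. Gap43 and Stmn2, proteins of the growth cone, fell by 1.72 (SE 0.13) and 1.82 (SE 0.11) on the log2 scale. Of 13 tested ganglion cell and neurofilament genes 2 rose and 3 fell. Nefh, the heavy neurofilament of mature thick axons, was among the rises, from 0.108 and 0.132 to 0.355 and 0.306 (log2 1.32, SE 0.15). The other neurofilament genes of the list, Nefl and Nefm, did not pass (log2 -0.12 and -0.31). The falls included Gap43 and Stmn2, which are counted in both lists.

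Cell division genes fell across the mitotic apparatus. Of 43 tested cell cycle genes 31 fell and 0 rose, with a median log2 change of -1.07. As deposited, 18 fell and 0 rose, with a median of -0.61. By role, 8 of 8 checkpoint and destruction genes, 15 of 21 spindle and chromosome genes and 8 of 14 cyclins and kinases fell. Mki67, present in all dividing cells, went from 0.445 and 0.305 to 0.0587 and 0.0573 (log2 -2.30, SE 0.20, adjusted p 0.00093). Cdk1, the kinase that starts mitosis, went from 0.397 and 0.366 to 0.0803 and 0.0951 (log2 -1.89, SE 0.14), and Top2a, the topoisomerase that untangles chromosomes, from 0.411 and 0.427 to 0.12 and 0.100 (log2 -1.75, SE 0.14). Each was lower on both 1-month arrays, at signals above the lowest listed value. Birc5, survivin, fell by 1.85 (SE 0.16), Cks2 by 2.09 (SE 0.13) and Cdk4, the partner of cyclin D, by 1.85 (SE 0.14) on the log2 scale. The mitotic kinase Pbk fell by 2.53 (SE 0.20).

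Of 38 tested DNA replication genes 16 fell and 1 rose, with a median of -0.61. As deposited, 8 fell and 1 rose. Falls were seen in the helicase subunit Mcm7, from 0.898 and 0.855 to 0.25 and 0.24 (log2 -1.75, SE 0.11), the nucleotide reductase subunit Rrm2 (log2 -1.51, SE 0.15) and E2f1, the factor of S phase entry (log2 -1.35, SE 0.18). Ezh2, a chromatin methyltransferase, fell from 0.291 and 0.317 to 0.0888 and 0.0778 (log2 -1.64, SE 0.14). The gene that rose was Rpa1, which coats single-stranded DNA in replication and repair, from 0.649 and 0.656 to 1.05 and 1.15 (log2 0.73, SE 0.11). Fen1, a flap nuclease, had 0.328 and 0.247 against 0.227 and 0.052 and did not pass (adjusted p 0.16).

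Promoters of mitotic genes are shown because these genes fell together. Such promoters are known for CCAAT boxes and for a cell cycle homology region with the letters TTTGAA. Of the 31 cell cycle genes that fell, 25 had a sequence for the 250 bases before the start. CCAAT on either strand (ATTGG on the other) was in 19 of the 25, against 40.2% of tested genes and 34.4% of all windows. It was also in 6 of 10 clock genes and 8 of 16 rod genes that rose. TTTGAA or TTCAAA was in 13 of the 25, against 12.8% and 10.5%. Matches to either motif were counted separately and may overlap. Capitals mark these letters in Cdk1 (chr10:69352913-69353162), Top2a (chr11:99024190-99024439) and Mki67 (chr7:135716380-135716629), all on the minus strand of GRCm38.p6.
Cdk1: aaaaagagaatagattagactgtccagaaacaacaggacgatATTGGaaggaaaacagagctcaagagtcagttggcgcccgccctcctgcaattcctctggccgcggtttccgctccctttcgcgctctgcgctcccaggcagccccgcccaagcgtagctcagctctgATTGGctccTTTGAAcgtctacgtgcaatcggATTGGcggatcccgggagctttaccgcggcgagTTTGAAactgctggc
Top2a: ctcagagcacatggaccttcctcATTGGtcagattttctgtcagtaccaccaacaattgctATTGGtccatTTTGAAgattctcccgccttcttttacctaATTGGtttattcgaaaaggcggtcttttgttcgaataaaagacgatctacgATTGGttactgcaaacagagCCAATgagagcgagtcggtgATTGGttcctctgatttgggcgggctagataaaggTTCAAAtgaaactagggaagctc
Mki67: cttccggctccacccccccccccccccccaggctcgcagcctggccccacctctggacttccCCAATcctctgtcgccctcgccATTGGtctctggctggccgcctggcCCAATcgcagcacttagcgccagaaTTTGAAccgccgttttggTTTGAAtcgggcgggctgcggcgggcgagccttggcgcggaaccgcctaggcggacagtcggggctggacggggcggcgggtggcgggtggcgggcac
The windows held 5, 8 and 5 matches. TAATCC, the letters counted in rod genes, was in 0 of the 25.

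**Figure D4:**
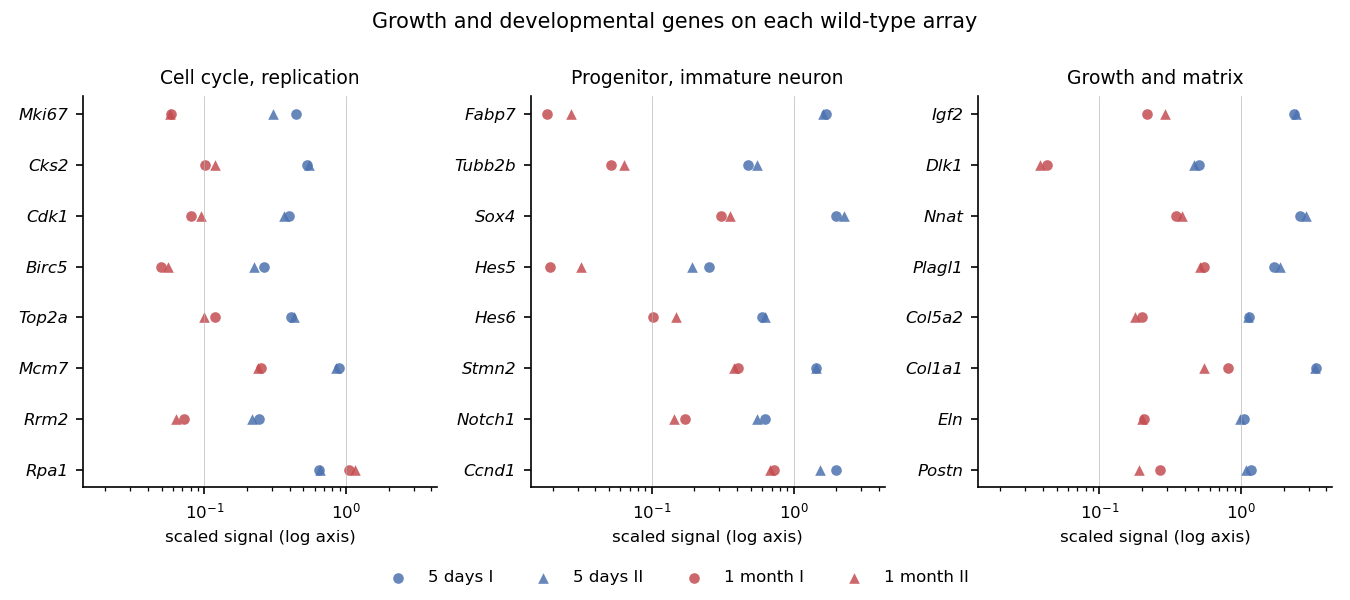
Scaled signal (log axis) of cell cycle, progenitor, growth and matrix genes on each wild-type array, 5 days in blue and 1 month in red, with circles for array I and triangles for array II. All genes shown except Rpa1 are lower on both 1-month arrays, with Fabp7 falling from 1.69 and 1.61 to 0.0182 and 0.0271.

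Fetal growth genes fell together. Imprinted genes are read from the copy of a single parent, and many steer growth before weaning. Of 14 tested 12 fell and 0 rose, with a median log2 change of -0.85. Igf2, the fetal insulin-like growth factor, went from 2.36 and 2.46 to 0.217 and 0.292 (log2 -3.15, SE 0.16, adjusted p 0.00016). Dlk1, a membrane protein of immature cells, went from 0.506 and 0.464 to 0.0431 and 0.0384 (log2 -3.03, SE 0.14). Plagl1, a zinc finger factor, fell from 1.7 and 1.87 to 0.545 and 0.513 (log2 -1.72, SE 0.12). No 1-month signal of these genes reached a 5-day signal. Grb10, an adaptor that restrains insulin signalling, fell by 1.41 (SE 0.15), Peg3 by 1.10 (SE 0.17) and the non-coding RNA Meg3 by 0.90 (SE 0.12) on the log2 scale. On the values as deposited Peg3 and Meg3 did not pass (adjusted p 0.15 and 0.34), and 5 of the 14 fell. Nnat, neuronatin, an imprinted gene outside that list, went from 2.63 and 2.88 to 0.35 and 0.381 (log2 -2.84, SE 0.12). In the insulin-like growth factor list 8 of 13 fell, or 3 as deposited with 1 rise. Falls included Igf1 (log2 -1.0, SE 0.15), Igf2bp3, which binds the Igf2 messenger (log2 -1.49, SE 0.21), and Hmga2 (log2 -1.20, SE 0.18), and 0 of 3 receptors passed. Ribosomal protein genes had 7 of 33 lower and 0 higher, with a median of -0.31, and splicing and chromatin genes 9 of 24 lower and 1 higher, with a median of -0.44. Both medians turned positive on the values as deposited, with 0 ribosomal and 2 splicing and chromatin genes lower. Ribosomal falls ran from 2 without 5-day I to 20 without 1-month II, and splicing and chromatin falls were 4 without 5-day I and 5 without 5-day II. Among the chromatin genes Hmgb2 and Hmgb3, loose chromatin proteins of dividing cells, fell by 1.79 (SE 0.14) and 1.82 (SE 0.13) on the log2 scale.

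Most genes of the extracellular matrix fell. Of 39 tested genes of fibrillar collagen and matrix 32 fell and 1 rose, with a median log2 change of -1.32. As deposited, 21 fell and 1 rose, with a median of -0.84. All but 1 of the 9 fibrillar collagen genes fell. Col1a1, the main collagen of sclera and stroma, went from 3.38 and 3.32 to 0.814 and 0.551 (log2 -2.29, SE 0.19, adjusted p 0.00079), and Col3a1 from 3.48 and 3.72 to 1.35 and 0.948 (log2 -1.65, SE 0.18). Col5a2, which sets fibril width, went from 1.14 and 1.12 to 0.199 and 0.179 (log2 -2.46, SE 0.12). The ages did not overlap in any of the 3. Eln, elastin, fell by 2.21 (SE 0.11), Postn, periostin, by 2.22 (SE 0.17) and Lox, the enzyme that cross-links collagen, by 1.99 (SE 0.14) on the log2 scale. Mfap4, a microfibril protein, was at 0.27 and 0.283 at 5 days and at the lowest listed value on both 1-month arrays, which is at least 13.1-fold lower. Fbln1, a fibulin, was the gene that rose, from 0.268 and 0.27 to 0.48 and 0.413 (log2 0.68, SE 0.13).

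Basement membrane genes had 13 of 21 lower and 2 higher. Nearly all of these falls depended on the scaling, since 2 were lower and 2 higher on the values as deposited. The 2 that rose, Lama3 (0.0743 and 0.0773 against 0.188 and 0.154) and Lamb3 (0.0574 and 0.0494 against 0.129 and 0.105), encode chains of the laminin under layered epithelia. Lamb3 did not pass without 5-day II (adjusted p 0.055) or 1-month I (0.073). Lama4, a laminin of vessels, fell from 0.117 and 0.0665 to 0.0165 and 0.00955 (log2 -1.70, SE 0.28). Of 8 tested proteoglycans of the small leucine-rich family in the stromal list, 5 fell (Kera, Lum, Bgn, Ogn and Aspn) and 1, Prelp, rose. Of these calls those of Lum, Bgn, Ogn and Aspn were lost on the values as deposited, and that of Prelp without 5-day II (adjusted p 0.15), 1-month I (0.11) or 1-month II (0.099). The whole list had 5 of 16 higher and 6 lower, the other rises being Aldh3a1 and Tkt, also counted as corneal, Ptgds and Angptl7. As deposited, 8 of the 16 were higher and 1 lower, and rises were 3 without 1-month I or without 1-month II. Kera, keratocan of the corneal stroma, fell from 0.452 and 0.469 to 0.18 and 0.162 (log2 -1.33, SE 0.12), Lum, lumican, by 0.91 (SE 0.11) and Bgn, biglycan, by 1.26 (SE 0.19) on the log2 scale. Dcn, decorin, had 2.64 and 2.48 against 2.51 and 2.77, with overlapping groups. Angptl7, of stroma and outflow tissue, rose from 0.0222 and 0.0398 to 0.0954 and 0.0965 (log2 1.19, SE 0.23), a call lost without 1-month I (adjusted p 0.050) and without 1-month II (0.051). Of 27 endothelial and vessel genes 10 fell and 1 rose. The falls were 5 without 5-day I, and as deposited 2 fell and 2 rose. Aplnr, the apelin receptor of growing vessels, fell from 0.376 and 0.246 to 0.0323 and 0.0291 (log2 -2.65, SE 0.22) and Cdh5, the endothelial cadherin, by 1.15 (SE 0.20). The rise was Flt1, a VEGF receptor, from 0.0669 and 0.0799 to 0.173 and 0.159 (log2 0.99, SE 0.16).

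Genes of developing muscle fell. Of 8 tested developmental muscle genes 5 fell and 0 rose, with 3 falls as deposited, without 5-day I or without 5-day II. Myh8, the perinatal myosin, went from 0.207 and 0.159 to 0.0116 and 0.0178 (log2 -2.51, SE 0.21), and Chrng, the fetal acetylcholine receptor subunit, from 0.152 and 0.142 to 0.0089 and 0.0536 (log2 -1.83, SE 0.41, adjusted p 0.024). Myh3, the embryonic myosin, had 0.137 and 0.149 against 0.121 and 0.0676 and did not pass (adjusted p 0.15). Of 29 adult muscle genes 6 rose and 5 fell, against 12.9% and 12.5% of all tested genes, so no direction is read for the list. As deposited, 10 rose and 3 fell. Myh4, a fast adult myosin, was at the lowest listed value on both 5-day arrays and had 0.24 and 0.164 at 1 month, at least 9.42-fold higher. Pvalb, parvalbumin, which binds calcium in fast fibres and some retinal neurons, went from 0.108 and 0.113 to 0.579 and 0.473 (log2 2.05, SE 0.15). Mb, myoglobin, rose by 1.70 (SE 0.16). Among the falls were Sln, an inhibitor of the calcium pump, from 0.193 and 0.23 to 0.0263 and 0.0393 (log2 -2.12, SE 0.19), Casq2 of slow and cardiac muscle (log2 -1.89, SE 0.19) and Acta1, skeletal actin (log2 -1.28, SE 0.25). Of 12 myelin genes 2 rose and 4 fell, or 4 and 0 as deposited. Mbp, myelin basic protein, differed between replicates at both ages (0.0634 and 0.162 against 0.122 and 0.655), and its groups overlapped. Mal, a raft protein of myelin and of epithelia, rose from 0.283 and 0.371 to 3.02 and 3.11 (log2 3.16, SE 0.15).

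Glycolytic genes rose. Photoreceptors are known for making lactate from glucose even with oxygen present. Of 24 tested genes of glycolysis and lactate 13 rose and 1 fell, with a median of 0.68. Hk2, the hexokinase of photoreceptors and muscle, went from 0.208 and 0.232 to 0.906 and 0.973 (log2 1.99, SE 0.12), Eno2, neuronal enolase, from 0.264 and 0.235 to 1.01 and 0.921 (log2 1.87, SE 0.12), and Slc16a1, a lactate transporter, from 0.364 and 0.346 to 1.07 and 1.26 (log2 1.66, SE 0.13). The 1-month arrays were the high ones in each. Pfkp, Aldoc and Hk1 rose by log2 1.48, 1.25 and 1.34. Of the 8 tested genes of transport and related steps 3 rose, with a median of 0.09. Neither lactate dehydrogenase gene tested passed (log2 -0.30 and 0.68), so a rise of lactate genes as a group is not shown. The gene that fell was Pgam2, the muscle phosphoglycerate mutase, from 0.906 and 0.83 to 0.179 and 0.363 (log2 -1.68, SE 0.29). Of 61 genes of oxidative phosphorylation 4 rose and 11 fell, with a median of -0.16. No direction is read for them, since 9 rose and 0 fell on the values as deposited, and 2 rose and 2 fell without 5-day I or without 5-day II. Cox8b, a muscle subunit of complex IV, rose by 1.49 (SE 0.14), and Ndufa1 and Sdhd fell by 0.78 (SE 0.11) and 0.92 (SE 0.14) on the log2 scale, both calls lost on the values as deposited (adjusted p 0.39 and 0.32). Ndufa1 did not pass without 5-day I (0.057) or 5-day II (0.056). Of 12 glycogen genes 3 rose and 0 fell, namely Ppp1r3c, which targets phosphatase to glycogen (log2 1.85, SE 0.13), Gyg, glycogenin (log2 1.78, SE 0.19), and Pygl (log2 1.29, SE 0.15).

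Genes of antigen presentation and the interferon response rose. Of 16 tested histocompatibility and processing genes 9 rose and 0 fell, with a median of 0.86. Psmb8, an immunoproteasome subunit, went from 0.0144 and 0.0127 to 0.169 and 0.155 (log2 2.40, SE 0.18), and Tap2, the peptide transporter, from 0.0193 and 0.0167 to 0.0827 and 0.0776 (log2 1.37, SE 0.20). The class I chain H2-D1 went from 0.373 and 0.305 to 0.986 and 0.795 (log2 1.34, SE 0.16), where 4 of its 5 tested probe sets rose, and class I probe sets may share signal between close copies. B2m, the common light chain, had 1.07 and 1.2 against 1.41 and 1.33 and did not pass (adjusted p 0.15). Of 20 interferon-stimulated genes 8 rose and 0 fell, with a median of 0.72. As deposited 17 were called higher, in a fit with pooled spread where 90.5% of calls are rises. Ifitm1, a membrane protein that blocks virus entry, went from 0.676 and 0.778 to 3.03 and 2.43 (log2 1.87, SE 0.15), and the factor Irf1 from 0.164 and 0.156 to 0.379 and 0.425 (log2 1.22, SE 0.13). The 1-month arrays were higher in each.

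Genes of the circadian clock rose. Of 17 tested clock genes 11 rose and 0 fell, with a median of 1.05. Dbp, an output factor of the clock, went from 0.11 and 0.106 to 0.919 and 0.853 (log2 2.81, SE 0.12, adjusted p 0.00012), and Nr1d1, which represses clock genes, from 0.12 and 0.096 to 0.502 and 0.527 (log2 2.06, SE 0.14). The ages were far apart in both. All 4 tested output genes rose, including Hlf (log2 1.74, SE 0.13) and Usp2 (log2 1.34, SE 0.14). Of the positive limb 1 of 4 rose, Rora (log2 1.29, SE 0.12), while Clock had 0.212 and 0.206 against 0.275 and 0.244 and did not pass (adjusted p 0.17). Per2, of the negative limb, had 0.0327 and 0.0318 against 0.0456 and 0.0511 (adjusted p 0.22). The hour of sampling is not given, so age and hour cannot be told apart for genes that cycle daily. Of 21 immediate early and stress genes 9 rose and 3 fell. Fos went from 0.0968 and 0.0935 to 0.382 and 0.478 (log2 1.95, SE 0.15), the stress kinase Sgk1 rose by 1.63 (SE 0.11), and Gadd45g, a growth arrest gene of newborn neurons, fell from 0.243 and 0.245 to 0.0394 and 0.0485 (log2 -2.03, SE 0.16).

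Most genes called in wild type moved the same way in the KPAW arrays, which the wild-type comparison did not use. Of the genes that rose in wild type, 1156 of 1220 (94.8%) were higher in KPAW at 1 month by the difference of group means, where 47.3% of all tested genes were. Of those that fell, 1122 of 1187 (94.5%) were lower. Fabp7 went from 1.53 and 1.88 to 0.0174 and 0.0205 in KPAW, Igf2 from 2.1 and 1.99 to 0.247 and 0.251, and Rpe65 from 0.117 and 0.0765 to 1.22 and 1.58. By list, the KPAW means moved the same way for 15 of 15 called progenitor genes, 31 of 31 cell cycle genes and 32 of 33 matrix genes. They also did for 11 of 12 imprinted genes and 9 of 9 genes of pigment epithelium and visual cycle. Shares were lower for rod genes (14 of 23), histocompatibility and processing genes (6 of 9) and lens fibre genes (3 of 5). Over the arrays, 1890 of the 2407 called genes had both KPAW 1-month signals on the same side of both 5-day signals as in wild type, 502 had overlapping KPAW groups and 15 were on the opposite side. Some lists had medians of opposite sign: keratinization had -0.66 in wild type and 2.15 in KPAW, photoreceptor factors 0.24 and -1.27, melanin genes -0.12 and 0.25, and lens fibre genes -0.60 and 0.06. These differences between lists were not tested. Rod genes differed between the KPAW arrays. Gnat1 had 0.0614 and 0.0772 in KPAW at 5 days, and at 1 month 0.0478 in KPAW I and 7.18 in KPAW II. The median log2 change of the rod list was -1.06 in KPAW I and 1.97 in KPAW II. Krt12 had 0.391 and 5.13 on these arrays. A limma interaction term over all 8 arrays called 0 of 15818 probe sets as changing differently with age in the 2 kinds of eye, with 923 at an unadjusted p under 0.05. Without KPAW II at 1 month it called 296, with the change more negative in KPAW for 252 of them.

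**Figure D5:**
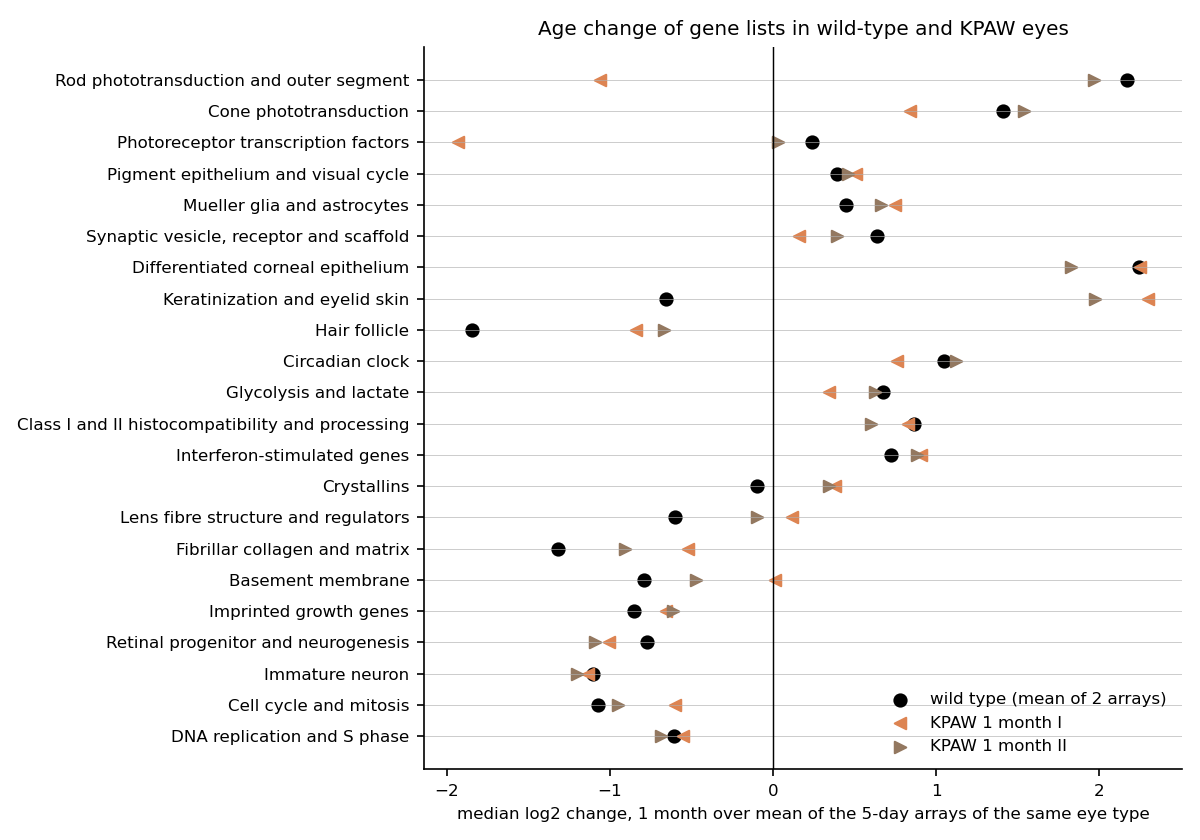
Median log2 change from 5 days to 1 month of each list in wild type (black, mean of 2 arrays) and for each 1-month KPAW array against the mean of the KPAW 5-day arrays (left and right triangles). The rod list separates KPAW I (-1.06) from KPAW II (1.97) and wild type (2.17), photoreceptor factors lie at -1.93, 0.03 and 0.24, and keratinization genes at 2.30, 1.97 and -0.66.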

How the data were processed

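RNA of wild-type mouse eyes was measured on Affymetrix arrays. The authors deposited 1 signal per probe set and array, with a median of 1 over the control probe sets of each array. The software, background correction and summary method are not given in the sources used here. Scaling brought every array to 1 trimmed mean (2% off each end), the median of the values before scaling, which ran from 0.143 to 0.254 (ratio 1.78). Values were taken as log2(scaled signal + 0.0211), the pseudocount being the 20th percentile, so a log2 change understates the change of low genes. Probe sets with a wild-type mean above the 30th percentile were kept, and among the probe sets naming only a given gene the brightest stood for it. Names come from the platform annotation (20380 probe sets with 1 symbol, 691 with several, 1555 with none). Of called genes with several probe sets, 5 had another called the opposite way.

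limma 3.58.1 (R 4.3.3) was fitted to the 4 wild-type arrays with a variance trend and 2 residual degrees of freedom, adjusted by Benjamini-Hochberg over 15818 probe sets and called at 0.05. In simulated data of 15818 probe sets with independent normal values, 50 were changed at each fold. There limma recovered 80% of 2-fold and 100% of 4-fold, 8-fold and 16-fold changes, and also called 18 unchanged probe sets. Far fewer were changed there than were called here, so the simulation gives no error rate for these calls. "At least" folds set the other group's geometric mean against the pseudocount. Numerals I and II did not pair arrays: deviations of same-numbered arrays correlated at -0.01. Python 3.11.15, pandas 2.3.3 and matplotlib 3.10.9 made tables and plots.

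The members and gene lists were chosen with earlier results of these data known. Named genes are the 15 called with the largest change and separate groups in each direction, up to 8 called and 3 other members of each list, and a short list of tissue markers. Pde6g, Cngb1, Dct, Tyrp1, Prelp, Ogn, Aspn, Tkt and Slc12a2 were chosen after their values were seen. Alternatives were other scalings, pseudocounts and filters, no variance trend, all 8 arrays, a 2-fold minimum, a replicate block, a floor, testing only the representative probe sets, and leaving out each array.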

Additional observations from a re-analysis of the deposited data

Results flagged for a closer look

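Of the genes named in the text, 3 had wild-type arrays that all moved with age in 1 direction and KPAW arrays that all moved in the other. For H2-D1, the class I chain, the wild-type signal rose, while KPAW went from 0.415 and 0.296 to 0.177 and 0.173. The log2 change with age was lower in KPAW by a difference of -2.26, with an adjusted p of 0.53 in the limma interaction test. For Hsf4, the lens heat shock factor, which fell in wild type, KPAW had 0.193 and 0.206 against 0.22 and 0.206, which is close to a tie, and the difference of the changes was 0.89 (adjusted p 0.81 in the limma interaction test). For Lor, loricrin, KPAW went from 0.315 and 0.0934 to 1.30 and 0.772, against a decrease in wild type that did not pass, and the difference was 3.95 (adjusted p 0.81 in the limma interaction test). The interaction test thus passed in none of the 3. Of the 2407 genes called in wild type, 15 had KPAW arrays that all moved the opposite way, 1890 had KPAW arrays that all moved the same way, and 502 had overlapping KPAW groups. Groups of 2 arrays are too small for the search for outlying arrays.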

How the results depend on the processing

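The count of called probe sets (3795) stayed within 1.5 times under the other scalings, pseudocounts, filters, variance model and floor. It also did in the fit of all 8 arrays (2889, with 1395 higher and 1494 lower). A like count need not hold the same calls. As deposited, 2274 of the 3795 calls (59.9%) were kept with their sign, and 134 changed sign. The fit of all 8 arrays kept 2819 (74.3%). The 2-fold minimum left 1462 (918 higher, 544 lower), by its construction, and 1 probe set per gene left 1269 higher, with fewer features tested. As deposited, 3650 were higher and 383 lower, so that 90.5% of calls were rises against 51.3%. The cause was not tested. Leaving out 1 array gave between 2406 and 3098 calls, 1386 to 1493 higher and 1020 to 1605 lower. The replicate block called 3587 (1890 higher, 1697 lower) and ended no call of a gene named here. Interaction calls rose from 0 to 30 as deposited (cause not tested), were 0 with the replicate block, and ran from 0 to 296 without 1 array.

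Of 180 called genes of the text 131 kept call and sign in every setting. As deposited 21 lost their call (Otx2, Trpm1, Tfap2a, Pmel, Tyr, Cryga, Gja3, Hsf4, Upk3b, Lum, Bgn, Ogn, Aspn, Cdh5, Peg3, Meg3, Igf1, Sdhd, Ndufa1, Hmox1, Mrc1), and in the fit of all 8 arrays 24, mostly rod and epithelial genes. Among the genes of the text, sign changes were seen in ones that were not called. Under scaling, Cryaa gave 0.50 as deposited and 0.065 with quantile normalization, and Dct and Dcn -0.049 and -0.045 with median scaling. Without 1 array, Gnb1 ran from -0.13 to 2.01, Pax6 from -0.11 to 0.36, Dct from -0.10 to 0.17, Tyrp1 from -0.061 to 0.37, Cryaa from -0.11 to 0.094, Crygs from -0.027 to 0.34, Dcn from -0.026 to 0.11 and Krt1 from -3.34 to 0.023. With 2 arrays a group, a lone array is assumed to vary like the other age.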

Other observations

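Several of the largest changes lay outside the groups described. Kcnj14, a potassium channel, went from 0.0162 and 0.0127 to 1.49 and 1.59 (log2 5.46, SE 0.13), and Pglyrp1, which binds bacterial peptidoglycan, from 0.0334 and 0.049 to 1.48 and 1.51 (log2 4.61, SE 0.16). Cacnb2, a calcium channel beta subunit, was at the lowest listed value on both 5-day arrays and at least 24.4-fold higher at 1 month (0.514 and 0.513). In KPAW at 1 month, Kcnj14 had 0.0402 in I and 1.31 in II, and Cacnb2 0.0249 and 0.375, so both differed between these arrays. Plet1 rose by 4.43 (SE 0.21) and Pdzph1 by 4.34 (SE 0.19). Among the falls, the factor Myb went from 0.461 and 0.525 to 0.0532 and 0.0376 (log2 -2.96, SE 0.17), the RNA-binding Caprin2 from 1.48 and 1.81 to 0.179 and 0.238 (log2 -2.86, SE 0.17), and the carboxypeptidase Cpz from 0.193 and 0.178 to the lowest listed value on both 1-month arrays, at least 8.79-fold lower.

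Of 31 glutathione and oxidant defence genes 9 rose and 3 fell. Gsta4, which detoxifies lipid aldehydes, went from 0.534 and 0.445 to 4.39 and 4.43 (log2 3.12, SE 0.13), and Hmox1, which breaks down haem, fell from 0.96 and 1.12 to 0.383 and 0.653 (log2 -1.02, SE 0.24, adjusted p 0.029, or 0.065 without 5-day II). Of 17 cholesterol synthesis genes 6 rose and 0 fell, or 12 as deposited and 3 without 5-day II, led by Sc5d (log2 1.63, SE 0.13). Macrophage and microglia genes had 3 of 21 higher and 3 lower, against 12.9% and 12.5% of all tested genes. No direction is read for this list, with a median of -0.17. Itgam, a leukocyte integrin, went from 0.0233 and 0.0203 to 0.121 and 0.102 (log2 1.63, SE 0.19), while Pf4 and Mrc1, of resident macrophages, fell by 1.63 (SE 0.28) and 0.96 (SE 0.16) on the log2 scale. Of 11 complement genes 4 rose, with Vtn, vitronectin, going from 0.101 and 0.0723 to 2.1 and 1.95 (log2 4.26, SE 0.16). Of 6 tested fat genes 0 were called. The summed signal of the 10 fat genes with a probe set was 3.01 in 5-day I, 1.20 in 5-day II, and 1.84 and 2.05 at 1 month.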
